A study of Mus musculus with 24 samples.

Results

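Liver transcripts in the subjective night were compared with those in the subjective day. The night side held the 9 arrays collected at circadian times CT15, CT18 and CT21, and the day side held the 9 arrays collected at CT03, CT06 and CT09, so that 18 of the 24 arrays of the series entered the difference. For each gene the difference is the night mean minus the day mean. Arrays of CT00 and CT12, which lie at the borders of the windows, carried no weight in it. They enter the estimate of the spread behind each test, and without them 1469 genes were called in place of 1816. The 28815 probe sets of the array gave 19935 genes with a single symbol, and all of them were tested.

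Every group was liver of adult male C57BL/6 mice, and the groups differed only in the hour of collection. The mice had been entrained for 4 weeks to 12L:12DR, light alternating with dim red light, and were then kept in dim red light throughout, with food always available. Livers were taken every 3 h on the second cycle after that change, with 3 arrays at each of 8 times, each from RNA of its own sample. The treatment text speaks of 4 mice and the extraction text of 3 biological replicates per time, and the series text of 4 time points in constant darkness, whereas the sample labels give 8 times. By convention CT00 marks the start of the subjective day and CT12 that of the subjective night, the active phase of the mouse. The comparison asks which liver transcripts stand at different amounts in the active and in the rest phase when no light cycle is present.

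In every liver cell a transcriptional loop keeps time. CLOCK and BMAL1 (encoded by Arntl) switch on the Period, Cryptochrome, REV-ERB and PAR bZIP genes through E-box motifs, the Period and Cryptochrome proteins then inhibit CLOCK and BMAL1, and the REV-ERB proteins repress Arntl at elements that ROR proteins use to activate it. The loop and the daily rhythms of feeding, body temperature and hormones together set the timing of liver genes for lipid, bile acid, glucose and protein metabolism.

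Values are log values of each array relative to the median of the probe set over the 24 arrays. They are treated as base 2, which the sources used here do not state, and they carry no level, so that amounts of different genes were not compared. Array medians lay between -0.0185 and 0.0147. Single arrays lay 0.0613 to 0.125 from the mean of their own time (root mean square over genes). Among the night arrays, CT15 replicates 1 and 2 had the largest of these distances, and CT18 replicate 2 and CT21 replicate 1 had the lowest and the highest mean of the small nucleolar RNA probe sets (-0.22 and 0.22, against -0.21 to 0.024 over the day arrays). Counts are therefore also given without these 4 night arrays, an alternative chosen after the data had been seen. All 7 hepatocyte markers measured lay in the brighter of the array's brightness classes, and their mean lay between -0.091 and 0.13 in the night arrays and between -0.036 and 0.023 in the day arrays. Of the measured markers of 10 other cell types, among them 9 of Kupffer cells and 8 of endothelial cells, only Pdgfrb of stellate cells passed the threshold (-0.21). All 9 lymphocyte markers had a negative difference, with a marker mean of -0.20 to 0.039 in the night arrays and -0.10 to 0.12 in the day arrays. In bulk tissue fewer cells of a type and less RNA per cell cannot be told apart.

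Of the 19935 genes, 1816 (9.11%) differed between the windows at a limma adjusted p under 0.05. There were 781 genes higher at night (3.92%) and 1035 lower at night (5.19%). Most of these differences were small. The median fold was 1.17 among the higher genes and 1.16 among the lower genes, and 31 higher genes (0.156%) and 35 lower genes (0.176%) reached 1.5-fold. In 41 genes (0.206%) all 9 night arrays lay above all 9 day arrays, and in 58 genes (0.291%) all 9 lay below. The upper brightness class held 11.8% of all genes, 26.9% of the higher genes and 29.6% of the lower genes. Of its 2349 genes, 210 were higher and 306 lower. The list counts below are to be read beside 3.92% and 5.19% of all genes, and beside the larger shares of this class where most members belong to it. Most bile acid (17 of 21), fatty acid synthesis (20 of 24), respiratory chain (19 of 23) and cholesterol genes (16 of 22) belonged to this class. So did 16 of 23 P450, 12 of 15 ribosomal protein, 12 of 18 heme and iron and 10 of 14 methionine and taurine genes. The same held for 9 of 10 CCT, 16 of 26 endoplasmic reticulum, 13 of 23 autophagy and 13 of 25 fatty acid oxidation genes. Further such lists are named below. The lists were chosen with earlier results of these data known, so their counts are not independent of these arrays. Without the 4 night arrays named above the counts over all genes were 559 higher and 666 lower. The spread behind these tests is that between arrays of the same time. When the 6 time means were taken as the units, 3 against 3, 4 genes passed.

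**Figure D1:**
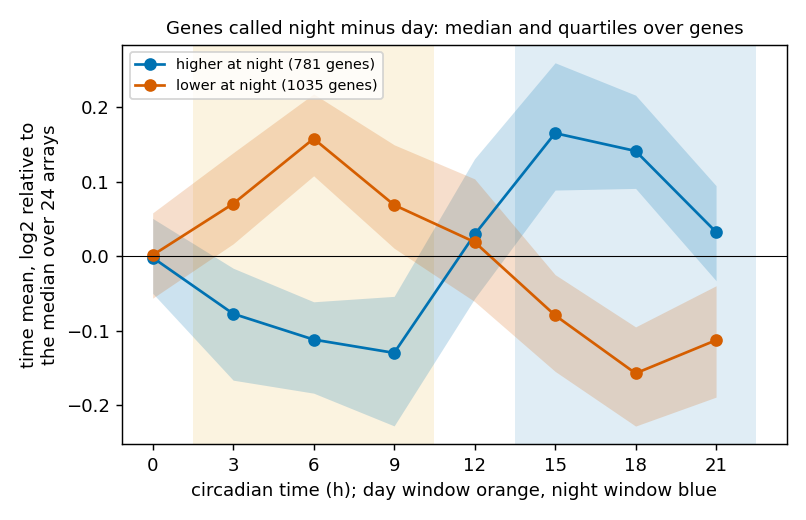
Median (points and lines) and quartiles (bands) over genes of the time means, in log2 units relative to each gene's median over the 24 arrays, against circadian time in h, for the 781 genes higher (blue) and the 1035 genes lower (orange) at night, with the day window shaded orange and the night window blue. The higher genes have their lowest median at CT09 (-0.13) and their highest at CT15 (0.17), the lower genes their highest at CT06 (0.16) and their lowest at CT18 (-0.16), and both medians are near 0 at CT00.

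The higher and the lower genes did not mirror each other in time. Because a gene was called on these arrays, the window that holds its highest mean is largely set by the call, and the hour within the window less so. Counts of highest and lowest means also favour times whose arrays spread more. CT15 replicates 1 and 2 and CT09 replicate 3 lay farthest from their time mean (0.125, 0.125 and 0.121). Among the 781 higher genes, 352 had their highest time mean at CT15, 243 at CT18 and 69 at CT21, and 347 had their lowest at CT09. Among the 1035 lower genes, 525 had their highest mean at CT06, and 456 had their lowest at CT18, 281 at CT21 and 200 at CT15. At the borders, CT12 lay nearer the night mean in 444 of the higher and 432 of the lower genes, and CT00 lay nearer the night mean in 377 and 497 of them.

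The pooled difference is the mean of 3 differences between times 12 h apart, each from 6 arrays of its own. CT15 minus CT03 passed for 894 genes (4.48%), with 535 higher (2.68%) and 359 lower (1.8%) at the later time. CT18 minus CT06 passed for 925 genes (4.64%), with 286 higher (1.43%) and 639 lower (3.21%). CT21 minus CT09 passed for 709 genes (3.56%), with 311 higher (1.56%) and 398 lower (2%). Higher genes outnumbered lower genes in the first pair, and lower genes outnumbered higher genes in the second and the third pair. Leaving out CT03 replicate 1 lowered the first count to 535, leaving out CT18 replicate 2 lowered the second to 475 and CT06 replicate 3 to 501, and leaving out CT21 replicate 3 lowered the third to 420 and CT21 replicate 2 to 441. Only 22 genes were higher and 12 lower in every pair, all 3 tested singly. Of the 1816 genes called in the pooled difference, 604 higher and 782 lower genes had the same sign in all 3 pairs. The pairs differed for 131 of the 781 higher and 160 of the 1035 lower genes by a moderated F test at an adjusted p under 0.05. Over all genes this test passed for 713 (3.58%).

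**Figure D2:**
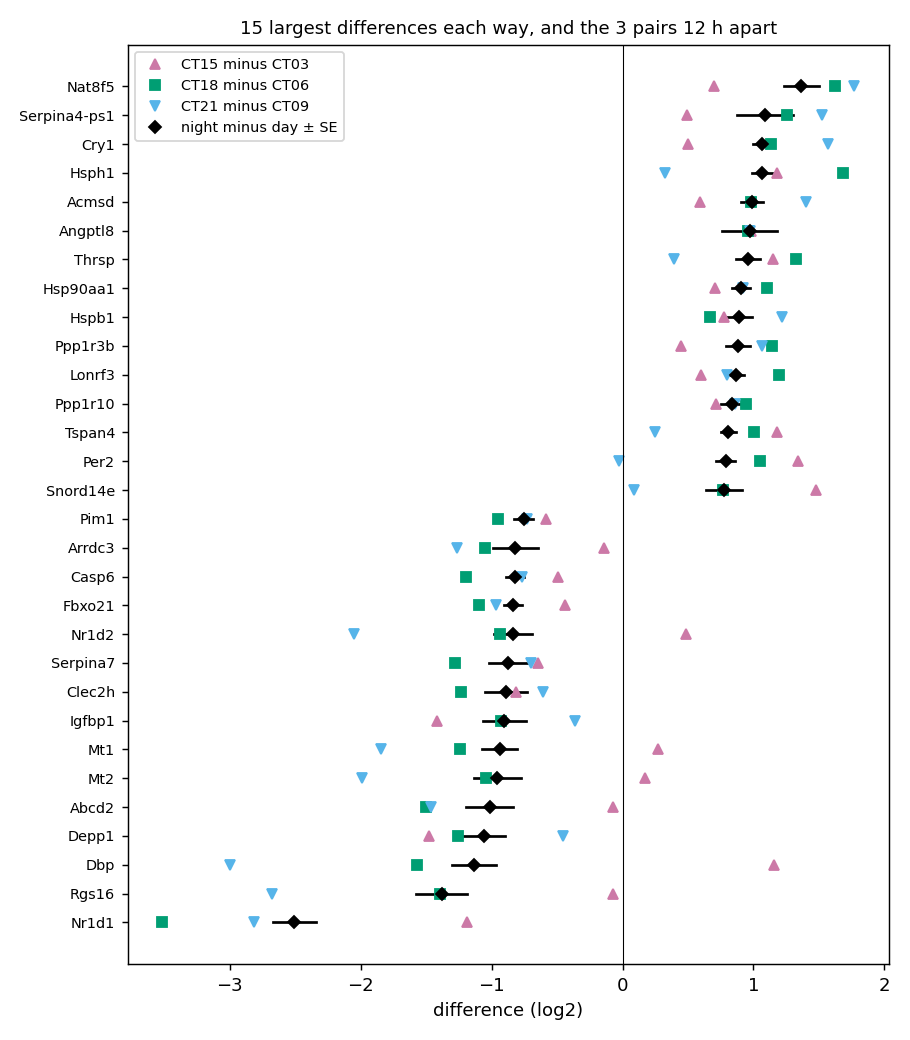
Night minus day difference (black diamonds, ± SE) and the 3 differences between times 12 h apart (triangles up for CT15 minus CT03, squares for CT18 minus CT06, triangles down for CT21 minus CT09), in log2 units, for the 15 genes with the largest difference in each direction. Hsp90aa1 and Pim1 have pairs close to each other, while for Dbp the first pair lies at 1.16 and the third at -2.99.

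Of the clock genes, Nr1d1, Dbp and Cry1 had the largest differences between the windows. Nr1d1 encodes REV-ERB alpha, the heme-binding nuclear receptor that represses Arntl, and it had the largest difference of all genes. Its values ran from -1.98 to -0.0034, median -1.38, in the night arrays and from 0.38 to 1.88, median 1.49, in the day arrays. The windows did not overlap, and night lay lower by a factor of 5.68 (-2.51 ± 0.17, adjusted p = 2.1e-08; SE, 9 arrays a side, as throughout). Its lowest mean was at CT18 (-1.79) and its highest at CT06 (1.72), and the 3 pairs, -1.19, -3.51 and -2.81, differed from each other (adjusted p = 0.0033). Nr1d2, which encodes the related receptor REV-ERB beta, was lower by less (-0.84 ± 0.14, adjusted p = 0.00072), and its windows overlapped. Its pairs ran from 0.48 at CT15 minus CT03 to -2.05 at CT21 minus CT09.

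Cry1, the Cryptochrome repressor that acts late in the cycle, was the clock gene with the largest rise at night. Its values ran from 0.077 to 0.88, median 0.52, in the night arrays and from -0.87 to -0.087, median -0.69, in the day arrays, without overlap, and the difference was 1.07 ± 0.071 (adjusted p = 2.1e-08), a 2.09-fold rise. The pairs grew over the night, from 0.50 through 1.13 to 1.57 (adjusted p that they differ = 0.0017). Per2, a Period repressor, was also higher (0.79 ± 0.072, adjusted p = 5.7e-07), with pairs of 1.34, 1.05 and -0.029, of which the first and second passed. At CT21 its mean (-0.036) was close to that of CT09 (-0.0063). Per1 and Per3 showed what the pooling hides. Per1 had pairs of 1.13, -0.060 and -0.84 and a pooled difference of 0.078 ± 0.077, adjusted p = 0.69, and Per3 had pairs of 1.06, 0.092 and -1.16 and -0.0050 ± 0.086, adjusted p = 0.99. Cry2 varied little, with 0.045 ± 0.054, adjusted p = 0.76.

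Dbp, the PAR bZIP activator of D-box genes, ran from -1.65 to 0.27, median -0.74, in the night arrays and from -1.34 to 1.73, median 0.77, in the day arrays. The windows overlapped, with means of -1.02 at CT03 and 0.14 at CT15, and the difference was -1.13 ± 0.16 (adjusted p = 0.00013). Its sister genes Tef (0.0088 ± 0.060, adjusted p = 0.97) and Hlf (0.12 ± 0.047, adjusted p = 0.13) did not pass, and the pairs of Tef were 1.11, -0.049 and -1.03. Bhlhe41, the E-box repressor DEC2, was lower at night (-0.58 ± 0.079, adjusted p = 6.9e-05), whereas Bhlhe40, which encodes DEC1, had 0.37 ± 0.12, adjusted p = 0.053. Ciart, a repressor of CLOCK and BMAL1, had strongly opposed pairs, 1.78, -0.66 and -2.25, and a pooled difference that missed the threshold (-0.38 ± 0.13, adjusted p = 0.082). Both values crossed it when single arrays were left out. For Bhlhe40 this was so without CT00 replicate 1 or 3, CT06 replicate 3, CT09 replicate 3, CT15 replicate 1 or CT18 replicate 1 (lowest adjusted p = 0.014, without CT15 replicate 1), and for Ciart without CT00 replicate 1 (0.0054) or CT00 replicate 3 (0.039). Hlf crossed it without CT09 replicate 3 (0.033) or CT15 replicate 1 (0.037). Of the 13 repressor, REV-ERB and PAR bZIP genes measured, 2 were higher and 4 lower at night, while all 13 changed over the 8 times. Without CT09 replicate 3 or CT15 replicate 1, 4 were higher.

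On the activating side, Arntl was higher at night (0.66 ± 0.074, adjusted p = 6.3e-06), but its pairs ran from -0.99 at CT15 minus CT03 through 0.71 to 2.26 at CT21 minus CT09 (adjusted p = 2.5e-09). The first of these lies in the other direction from the pooled value. Without the time CT09 Arntl lost its call (0.083, adjusted p = 0.69). Its values ran from -0.41 to 0.71, median 0.17, in the night arrays and from -1.78 to 0.73, median -0.47, in the day arrays, so the night values lay within the range of the day values. Clock, its partner, had pairs of -0.41, -0.0062 and 0.77 and a pooled difference of 0.12 ± 0.041, adjusted p = 0.089, which passed without CT15 replicate 1 (adjusted p = 0.0025). Nfil3, the repressor that competes with PAR bZIP proteins at D-boxes, was higher (0.32 ± 0.090, adjusted p = 0.027). Its call was lost in 6 of the 24 fits that left out 1 array each, those without CT03 replicate 3, CT06 replicate 3, CT09 replicate 3, CT15 replicate 2, CT18 replicate 3 or CT21 replicate 1, and without the 4 night arrays (adjusted p = 0.17). Arntl2 and Rora had differences of 0.015 and -0.056 and did not pass, so 2 of 5 genes of this group were called, both higher. Among 12 genes for enzymes that modify clock proteins, Usp2, a deubiquitinase, was the gene called higher (0.41 ± 0.073, adjusted p = 0.00082), with pairs of 1.71, 0.70 and -1.17. Its call was lost without the time CT03, CT06 or CT15. Prkaa2, a catalytic subunit of AMP kinase, had 0.19 ± 0.065, adjusted p = 0.071 and passed without CT15 replicate 3 (0.010) or CT18 replicate 2 (0.029). Btrc, a ubiquitin ligase subunit that targets Period proteins, was the gene called lower (-0.14 ± 0.038, adjusted p = 0.028), but not without CT03 replicate 3, CT06 replicate 2 or 3, CT09 replicate 1, CT15 replicate 3, CT18 replicate 2, or CT21 replicate 3, nor without the 4 night arrays (0.078).

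**Figure D3:**
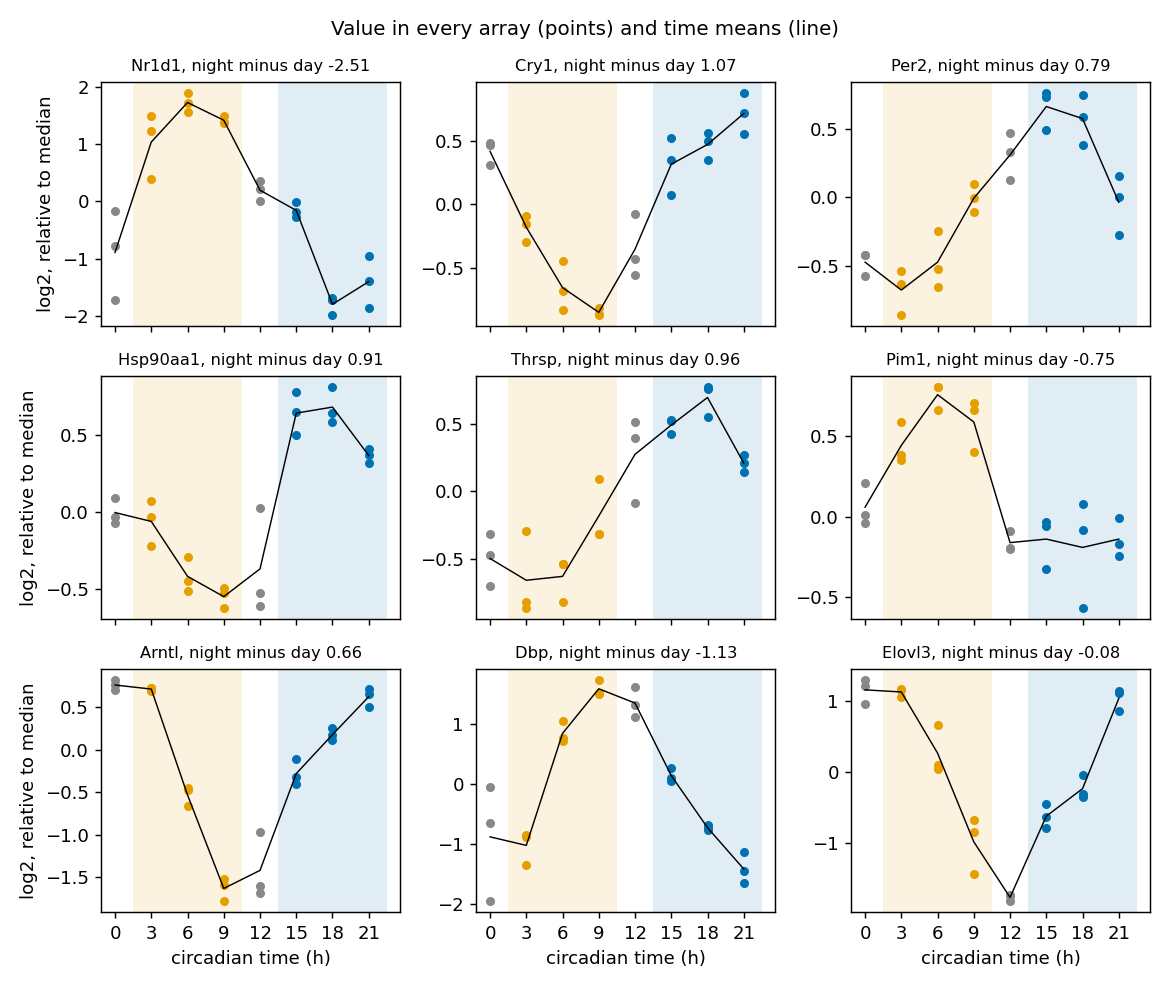
Value in every array (points; orange for the day window, blue for the night window, grey for CT00 and CT12) and time means (line) of 9 genes, in log2 units relative to the gene's median over the 24 arrays, against circadian time in h. Nr1d1, Cry1, Hsp90aa1, Thrsp and Pim1 separate the windows completely, Per2 and Dbp overlap, and Arntl and Elovl3 cross both windows on a slope that leaves 0.66 and -0.077 after pooling.

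E-box motifs stand close to the start of several of these genes, and 5 of these stretches are shown because the motif is the one that CLOCK and BMAL1 use. The windows come from RefSeq (GRCm38.p6), each is the stretch just upstream of an annotated start, in the direction of the gene, and capitals mark the E-box CACGTG. Cry1 (chr10:85185055-85185204, minus strand) and Tspan4 (chr7:141476230-141476379, plus strand), a tetraspanin gene, were higher at night. Pim1 (chr17:29492935-29493084, plus strand), a kinase gene, and Bhlhe41 (chr6:145865421-145865670, minus strand) were lower at night, and Ciart (chr3:95882229-95882378, minus strand), with 3 matches, was not called.
Cry1: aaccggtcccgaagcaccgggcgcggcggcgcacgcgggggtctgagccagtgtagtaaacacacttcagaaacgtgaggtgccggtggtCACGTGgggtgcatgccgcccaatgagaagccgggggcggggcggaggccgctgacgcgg
Tspan4: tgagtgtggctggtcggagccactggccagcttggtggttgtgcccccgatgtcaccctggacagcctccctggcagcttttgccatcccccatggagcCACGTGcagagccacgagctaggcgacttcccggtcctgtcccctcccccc
Pim1: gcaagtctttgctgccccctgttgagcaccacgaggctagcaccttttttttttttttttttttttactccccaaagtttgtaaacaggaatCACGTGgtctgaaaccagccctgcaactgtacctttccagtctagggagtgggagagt
Bhlhe41: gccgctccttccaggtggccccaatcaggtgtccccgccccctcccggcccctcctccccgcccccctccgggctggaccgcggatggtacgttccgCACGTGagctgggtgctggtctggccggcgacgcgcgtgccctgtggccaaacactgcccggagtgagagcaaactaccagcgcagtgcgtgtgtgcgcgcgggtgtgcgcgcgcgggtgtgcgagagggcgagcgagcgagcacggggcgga
Ciart: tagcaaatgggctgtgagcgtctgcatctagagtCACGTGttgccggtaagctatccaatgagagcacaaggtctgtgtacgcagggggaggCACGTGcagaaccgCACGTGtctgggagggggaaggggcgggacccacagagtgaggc
An E-box in the 250 bases upstream thus stood before genes of either direction. Only windows with a match are shown. Pim1 and Tspan4 each have another annotated start whose window held no E-box. Among the clock genes not shown, Per1 and Tef also had a window with a match, whereas those of Nr1d1, Nr1d2, Dbp and Arntl had none. The motif reads the same on both strands. It was found for 8.12% of the 15561 tested genes with a window, for 11.2% of 636 higher and 12.7% of 844 lower genes, and in 6.02% of all 32851 windows of this length. A match is a description of letters and not evidence of binding. The ROR element was found before 0.167% of the genes with a window, the D-box TTATGTAA before 0.900% and the cyclic AMP element TGACGTCA before 2.34% (4.09% of the higher and 2.13% of the lower genes), each on either strand.

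Beyond the clock, the largest falls at night included genes with their highest mean at CT09. Rgs16, which shortens signalling by G proteins, was lower by 2.6-fold (-1.38 ± 0.19, adjusted p = 9.2e-05). Its values ran from -0.99 to -0.023, median -0.68, in the night arrays and from -0.78 to 2.52, median 0.86, in the day arrays, and they overlapped, with means of -0.36 at CT03 and -0.43 at CT15. Mt1 and Mt2 encode the metallothioneins, metal-binding proteins induced by zinc and glucocorticoids, and were lower, at -0.94 ± 0.13 (adjusted p = 9.2e-05) and -0.96 ± 0.18 (0.0013). Their pairs ran alike, with 0.27, -1.24 and -1.85 for Mt1 and 0.17, -1.04 and -1.99 for Mt2. The probe sets of such close paralogs may share signal.

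Fbxo21, a substrate receptor of a ubiquitin ligase, ran from -0.50 to 0.014, median -0.34, in the night arrays and from 0.20 to 0.83, median 0.68, in the day arrays, without overlap (-0.84 ± 0.069, adjusted p = 1.6e-07). Casp6, a caspase gene, was lower to a like degree, also without overlap (-0.82 ± 0.070, adjusted p = 2.2e-07). Pim1 lay at -0.57 to 0.077 (median -0.082) at night and at 0.35 to 0.81 (median 0.66) by day (-0.75 ± 0.073, adjusted p = 1.1e-06), and its pairs, -0.58, -0.95 and -0.73, were not found to differ (adjusted p = 0.55). Depp1 and Igfbp1, genes induced by fasting, were also lower, with their largest pair first. Depp1 had pairs of -1.48, -1.25 and -0.45 and a difference of -1.06 ± 0.17, adjusted p = 0.00028, and Igfbp1, which binds insulin-like growth factors, had pairs of -1.42, -0.92 and -0.37 and -0.90 ± 0.17, adjusted p = 0.0012. Abcd2, a peroxisomal transporter of very long-chain fatty acids, was lower, at -1.01 ± 0.18 (adjusted p = 0.00091), and of its pairs, -0.075, -1.5 and -1.46, the second and the third passed. Serpina7, the thyroxine-binding globulin, Clec2h, a C-type lectin, and Arrdc3, an arrestin-like protein, completed the 15 largest falls, at -0.87, -0.89 and -0.82.

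The largest rise at night was that of Nat8f5, a member of the N-acetyltransferase 8 family. It ran from -0.14 to 1.05, median 0.67, in the night arrays and from -1.17 to -0.0065, median -0.95, in the day arrays and rose 2.58-fold (1.36 ± 0.13, adjusted p = 1.2e-06). The windows overlapped slightly. Serpina4-ps1, a serpin pseudogene, rose by 1.09 ± 0.21 (adjusted p = 0.0022), with a wide spread, -0.94 to 0.97 (median 0.53), at night. Both belong to families of near-identical copies, so the signal may be shared with relatives. Acmsd, the enzyme that diverts tryptophan breakdown from NAD synthesis, ran from 0.24 to 0.95, median 0.69, in the night arrays and from -1.01 to 0.16, median -0.29, in the day arrays, without overlap (0.99 ± 0.082, adjusted p = 1.6e-07), and its pairs grew from 0.59 to 1.40.

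Thrsp encodes the lipogenic protein Spot 14, and it ran from 0.14 to 0.78, median 0.52, in the night arrays and from -0.87 to 0.088, median -0.54, in the day arrays. The windows did not overlap (0.96 ± 0.089, adjusted p = 6.5e-07), but the third pair (0.39) was smaller than the first and second (1.15 and 1.33; adjusted p = 0.029). Angptl8, an insulin-induced inhibitor of lipoprotein lipase, rose by 0.97 ± 0.21 (adjusted p = 0.0046). Its pairs were nearly equal, 0.98, 0.96 and 0.97, yet its arrays overlapped, -0.36 to 1.11 (median 0.10) at night against -1.43 to 0.046 (median -0.81) by day, and no pair passed on its own. Ppp1r3b directs protein phosphatase 1 to glycogen, and it rose by 0.88 ± 0.090 (adjusted p = 2.0e-06) without overlap. Ppp1r10, a nuclear partner of the same phosphatase, Lonrf3, a RING finger protein, and Tspan4 also separated the windows, at 0.84, 0.86 and 0.81. Snord14e, a small nucleolar RNA encoded in an intron of the chaperone gene Hspa8, had 0.78 ± 0.14, adjusted p = 0.00097, with pairs of 1.47, 0.77 and 0.089.

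Many of the listed chaperone genes rose at night, in lists chosen with earlier results of these data known. Heat shock proteins keep other proteins folded, and HSF1 induces many of them when temperature or misfolding rises. Of 16 cytosolic and mitochondrial heat shock protein genes measured, 10 were higher and none (0) lower, beside 3.92% and 5.19% of all genes (median difference 0.24, against -0.00114 over all genes). When genes with several probe sets were left out, 5 were higher. In that setting none of the 143 named genes still tested changed its call. Without the time CT15 6 were higher and 1 lower. Of 25 genes for DNAJ, BAG and HSP90 co-chaperones, 14 were higher and none (0) lower (median 0.16). Without the 4 night arrays the counts were 9 and 13, with 1 heat shock gene lower, as was 1 without CT06 replicate 2, CT18 replicate 3 or CT21 replicate 1. The other members ranged down to -0.21, and 11 and 16 members had an unadjusted p under 0.05.

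Hsp90aa1 encodes the inducible form of HSP90, which matures kinases and steroid receptors. It ran from 0.32 to 0.82, median 0.59, in the night arrays and from -0.62 to 0.072, median -0.45, in the day arrays and rose 1.88-fold (0.91 ± 0.070, adjusted p = 7.8e-08). The windows lay well apart, and the pairs, 0.70, 1.10 and 0.92, were not found to differ (adjusted p = 0.46). Hsph1, the HSP110 exchange factor of HSP70, rose by 1.06 ± 0.077 (adjusted p = 4.6e-08), Hspa4l, its relative, by 0.77 ± 0.059 (7.8e-08) and Hspb1, the small heat shock protein HSP27, by 0.89 ± 0.10 (5.3e-06). Hspa4l and Hspb1 separated the windows, whereas Hsph1 did not, with 0.33 at CT21 minus CT09. Among the co-chaperones, Stip1, which joins HSP70 to HSP90, rose by 0.58 ± 0.058 (adjusted p = 1.6e-06), Ahsa2, an activator of HSP90, by 0.46 ± 0.050 (4.5e-06) and Fkbp5, a glucocorticoid-induced immunophilin, by 0.69 ± 0.085 (2.1e-05).

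The medians of the heat shock genes were uneven over the night, but differences between medians were not tested. The median pair difference of the heat shock genes was 0.36 at CT15 minus CT03, 0.30 at CT18 minus CT06 and -0.034 at CT21 minus CT09, and 7, 7 and 4 of the 16 genes passed in each. Hspa8, the constitutive HSP70 picked here after its values were seen, showed the turn, with 0.71, 0.65 and -0.39 (adjusted p that the pairs differ = 3.5e-05). Dnajb1 and Bag3, the partners of HSP70 also picked afterwards, had 1.16, 0.69 and 0.018 and 0.77, 0.78 and 0.18. By the moderated F test the pairs also differed for Hsph1, Dnajb1 and Fkbp5. Those of Hsp90aa1, Hspa4l, Hspb1, Stip1, Ahsa2 and Bag3 were not found to differ. At CT12, the border before the night, Hsp90aa1 (-0.37), Hspb1 (-0.65) and Hspa4l (-0.35) had means below 0, while Fkbp5 was already high (0.83).

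**Figure D4:**
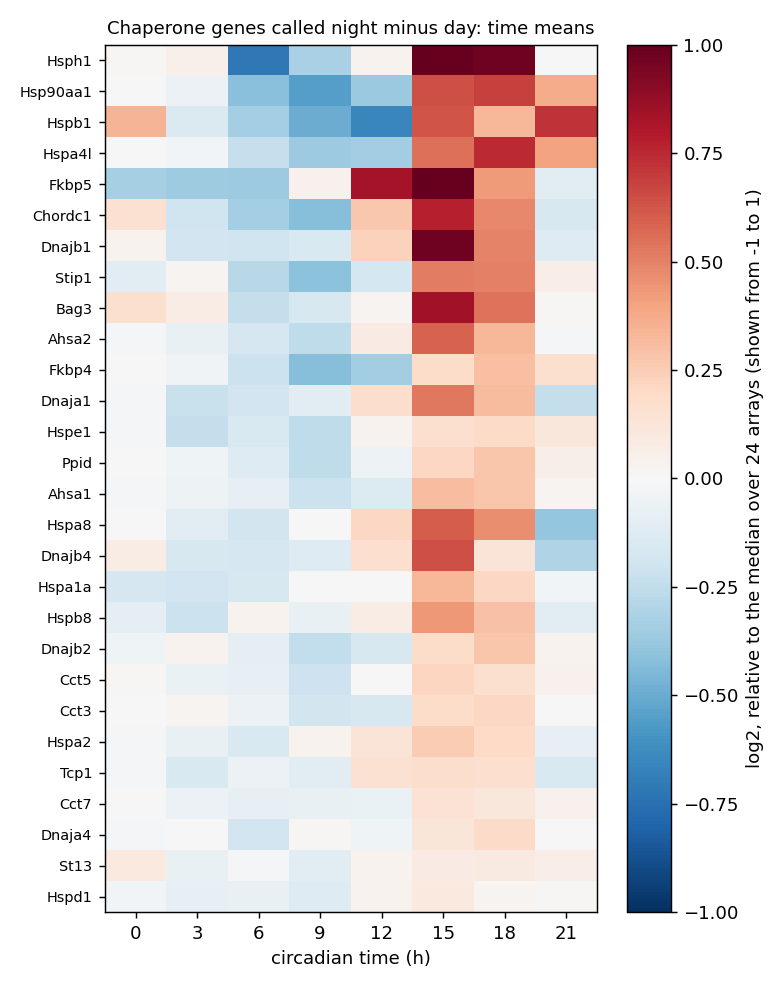
Time means of the 28 called genes of the heat shock, co-chaperone and CCT lists, sorted by their night minus day difference, in log2 units relative to the gene's median over the 24 arrays, with colours running from -1 (blue) to 1 (red) and larger values drawn at the end colour (largest 1.23). All 28 genes have means above 0 at CT15 and at CT18, while at CT21 Hspb1 stays high (0.72) and Hspa8 is low (-0.39).

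The mitochondrial pair Hspe1 and Hspd1 encodes the chaperonins HSP10 and HSP60 from a shared promoter, and this stretch holds the heat shock element that was searched, alternating GAA and TTC blocks with 2 bases between them, on either strand. Both genes were picked after their values were seen. Hspe1 rose by 0.37 ± 0.067 (adjusted p = 0.0012) and Hspd1 by 0.14 ± 0.034 (0.013), the second of these not without the 4 night arrays (0.071). The RefSeq window of Hspe1 (chr1:55087998-55088147, GRCm38.p6, plus strand) is printed with both matches, which overlap, in capitals.
Hspe1: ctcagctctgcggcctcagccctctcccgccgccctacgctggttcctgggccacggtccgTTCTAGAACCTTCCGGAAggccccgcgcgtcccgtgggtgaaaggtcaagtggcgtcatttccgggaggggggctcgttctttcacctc
The element stood before 2 of the 20 called heat shock and co-chaperone genes with a window, which are Hspe1 and Hspd1 and share these letters, before 1 of the 14 such genes that were not called, before 1.42% of all higher genes, 0.355% of all lower genes and 0.443% of all genes with a window, and in 0.466% of all windows.

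Further folding machinery moved by less. Of 10 subunit genes of the CCT chaperonin, which folds actin and tubulin, 4 were higher and none (0) lower, 6 having an unadjusted p under 0.05. Cct5 separated the windows (0.26 ± 0.035, adjusted p = 6.8e-05), and Cct3 (0.20) and Tcp1 (0.17) passed, but without the 4 night arrays only 1 subunit did. Of 26 genes for folding in the endoplasmic reticulum and the unfolded protein response, 7 were higher and 1 lower, and the same counts held without those arrays. The folding factors Dnajc3 (0.17) and Dnajb11 (0.28) rose, as did Hspa5, the main chaperone there (0.32 ± 0.082, adjusted p = 0.016), Hyou1 (0.37) and Creld2 (0.59), the last 3 picked after their values were seen. Their highest means were at CT18, and the pairs of Hspa5 were 0.046, 0.68 and 0.23 and those of Hyou1 -0.023, 0.69 and 0.44. The count depended on the times used. It was 1 without CT06 or CT09, 2 without CT18, 11 without CT03 or CT21, and 8 with 4 genes lower without CT15. The lower gene was Trib3, a pseudokinase induced by stress and fasting, which separated the windows (-0.59 ± 0.062, adjusted p = 3.0e-06). Of the cold-inducible RNA-binding proteins, Cirbp was lower at night (-0.53 ± 0.068, adjusted p = 3.8e-05), and Rbm3 had 0.0097 ± 0.086, adjusted p = 0.98 with pairs of 0.53, 0.022 and -0.52.

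Ribosome biogenesis genes that passed were also higher, with 1 exception. Of 28 measured, 11 were higher and 1 was lower (median 0.16). Nop16, a nucleolar protein, ran from 0.081 to 0.46, median 0.32, in the night arrays and from -0.36 to 0.025, median -0.21, in the day arrays, without overlap (0.48 ± 0.051, adjusted p = 3.0e-06). Nolc1, a scaffold of small nucleolar RNPs, rose by 0.51 ± 0.072 (adjusted p = 0.00010) and Nop56, a core protein of these particles, by 0.44 ± 0.076 (0.00069). Rrp12, picked afterwards, separated the windows (0.30). The exception was Ubtf, the RNA polymerase I factor UBF, also picked afterwards (-0.19 ± 0.043, adjusted p = 0.0055). The median pair differences were 0.38, 0.21 and 0.036, with 11, 4 and 2 genes called, and the first pair held most of the calls. Without the 4 night arrays 5 of the 28 were higher, and with the small nucleolar RNA mean of each array as a covariate 10 were. No gene (0) of 15 for cytosolic ribosomal proteins was called, with 2 at an unadjusted p under 0.05 and differences of -0.094 to 0.14. Those with the smallest p were Rpl10a (0.14), Rps18 (0.073; adjusted p = 0.036 without the 4 night arrays) and Rps6 (0.070). Of 19 translation factors, Eif5a was higher (0.21 ± 0.037, adjusted p = 0.00083) and the initiation factors Eif4b and Eif4a2 were lower (-0.31 and -0.24). The upper brightness class held 13 of the 19, and these counts were near its shares. Of 18 aminoacyl-tRNA synthetases, Cars was lower (-0.28) and Farsa higher (0.13), and Sars had -0.13 ± 0.047, adjusted p = 0.087. A second translation factor was higher without CT06 replicate 3 or CT15 replicate 1, a second synthetase higher without CT15 replicate 3 or CT18 replicate 2, and Sars lower without CT06 replicate 2, CT15 replicate 2 or CT18 replicate 3.

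Genes for cholesterol synthesis, uptake and its control by SREBP were lower in the pooled night where they passed. Of 22 measured, 7 were lower and none (0) higher (median -0.14), with 13 at an unadjusted p under 0.05, and 7 were lower without the 4 night arrays. Hmgcs1, the HMG-CoA synthase, ran from -0.87 to 0.10, median -0.40, in the night arrays and from -0.19 to 0.86, median 0.47, in the day arrays and was lower, at -0.68 ± 0.062 (adjusted p = 4.5e-07). Its pairs, -1.21, -0.95 and 0.11, differed (adjusted p = 2.0e-05). Fdft1, the squalene synthase, had the same course, with -0.28 ± 0.053, adjusted p = 0.0018 and pairs of -0.54, -0.44 and 0.16, and Scap, the escort protein of SREBP, was lower (-0.38 ± 0.052, adjusted p = 8.1e-05; pairs -0.49, -0.50 and -0.14). The median pair difference of the 22 genes moved from -0.40 through -0.10 to 0.15. A single member was higher without CT12 replicate 2 or 3, CT15 replicate 1 or CT21 replicate 1. Insig2, the SREBP retention protein and picked after its values were seen, had pairs of -1.09, -0.47 and 0.99 and no call (-0.19 ± 0.076, adjusted p = 0.15).

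Bile acid genes were lower at night in 10 of 21 cases and higher in 2 (median -0.090). Without the 4 night arrays 5 were lower and 1 higher. The lower count was also 5 without the time CT06 or CT18, and 8 or 9 without any other time of the windows. Hsd3b7, which acts early in bile acid synthesis, lay at -0.70 to 0.12 (median -0.34) at night and -0.22 to 0.54 (median 0.39) by day (-0.56 ± 0.043, adjusted p = 8.7e-08), with pairs of -0.97, -0.85 and 0.16. The canalicular transporters Abcg8, for sterols, and Abcb4, for phosphatidylcholine, were lower too (-0.68 ± 0.077, adjusted p = 7.0e-06; -0.38 ± 0.052, adjusted p = 6.8e-05), but in the later pairs, which were 0.14, -1.0 and -1.16 for Abcg8 and -0.070, -0.47 and -0.60 for Abcb4. Abcb11, the bile salt export pump, followed the first pattern (-0.56, -0.45 and 0.066), as did Nr0b2, the receptor SHP that represses bile acid synthesis (-0.89, -1.08 and 0.30; pooled -0.56 ± 0.090, adjusted p = 0.00038). Cyp7a1, the rate-limiting enzyme of the classic pathway, was higher (0.41 ± 0.11, adjusted p = 0.020), with pairs of 0.72, 0.83 and -0.32, but not without the 4 night arrays (adjusted p = 0.10). These last 3 were picked after their values were seen.

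Genes of fatty acid and triglyceride synthesis moved both ways, 6 higher and 2 lower of 24 (3 and 2 without the 4 night arrays). Next to Thrsp, the higher genes included Agpat2, an enzyme of phosphatidic acid synthesis (0.24 ± 0.042, adjusted p = 0.00086; pairs -0.19, 0.24 and 0.67), and, picked afterwards, Acly, which supplies cytosolic acetyl-CoA (0.34 ± 0.075, adjusted p = 0.0059), and Elovl6, a fatty acid elongase (0.45 ± 0.093, adjusted p = 0.0036; pairs 0.86, 0.85 and -0.38). Acly and Elovl6 missed the threshold without the 4 night arrays (adjusted p of 0.073 and 0.067). Agpat2 missed it without the time CT09 (0.041, adjusted p = 0.73). Elovl5, the elongase of polyunsaturated fatty acids, was lower, at -0.33 to 0.044 (median -0.11) against -0.17 to 0.71 (median 0.48) (-0.51 ± 0.055, adjusted p = 4.5e-06). It fell in the pairs from CT15 (-0.76) and CT18 (-0.72) and not in that from CT21 (-0.036).

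Of 17 genes for lipid droplet proteins and lipases, 3 were higher and 4 lower (1 and 2 without the 4 night arrays). Pnpla2, the triglyceride lipase ATGL, was lower (-0.38 ± 0.047, adjusted p = 2.3e-05), in the second and the third pairs (0.040, -0.49 and -0.68). The droplet coat gene Plin5 was higher (0.36 ± 0.054, adjusted p = 0.00018) and its relative Plin2 lower (-0.38 ± 0.065, adjusted p = 0.00059). Only 1 gene was higher without CT03 replicate 1, CT15 replicate 2, CT18 replicate 3 or CT21 replicate 1. Of 25 genes for fatty acid oxidation and other targets of PPAR alpha, 4 were lower and none (0) higher (median -0.11), with 10 at an unadjusted p under 0.05. Ppara itself (-0.34 ± 0.057, adjusted p = 0.00059) and Cpt1a, which admits fatty acids to mitochondria, were among them. Cpt1a ran from -0.43 to 0.38, median -0.22, in the night arrays and from -0.15 to 0.62, median 0.39, in the day arrays (-0.44 ± 0.052, adjusted p = 1.3e-05). The pairs of Cpt1a were 0.27, -0.63 and -0.96 and those of Ppara 0.24, -0.36 and -0.89, and of each gene the second and the third passed. A single member of the list was higher without CT06 replicate 3, CT09 replicate 1, CT15 replicate 1 or CT21 replicate 3. Fabp2, a fatty acid binding protein, had -0.45 ± 0.093, adjusted p = 0.0030.

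**Figure D5:**
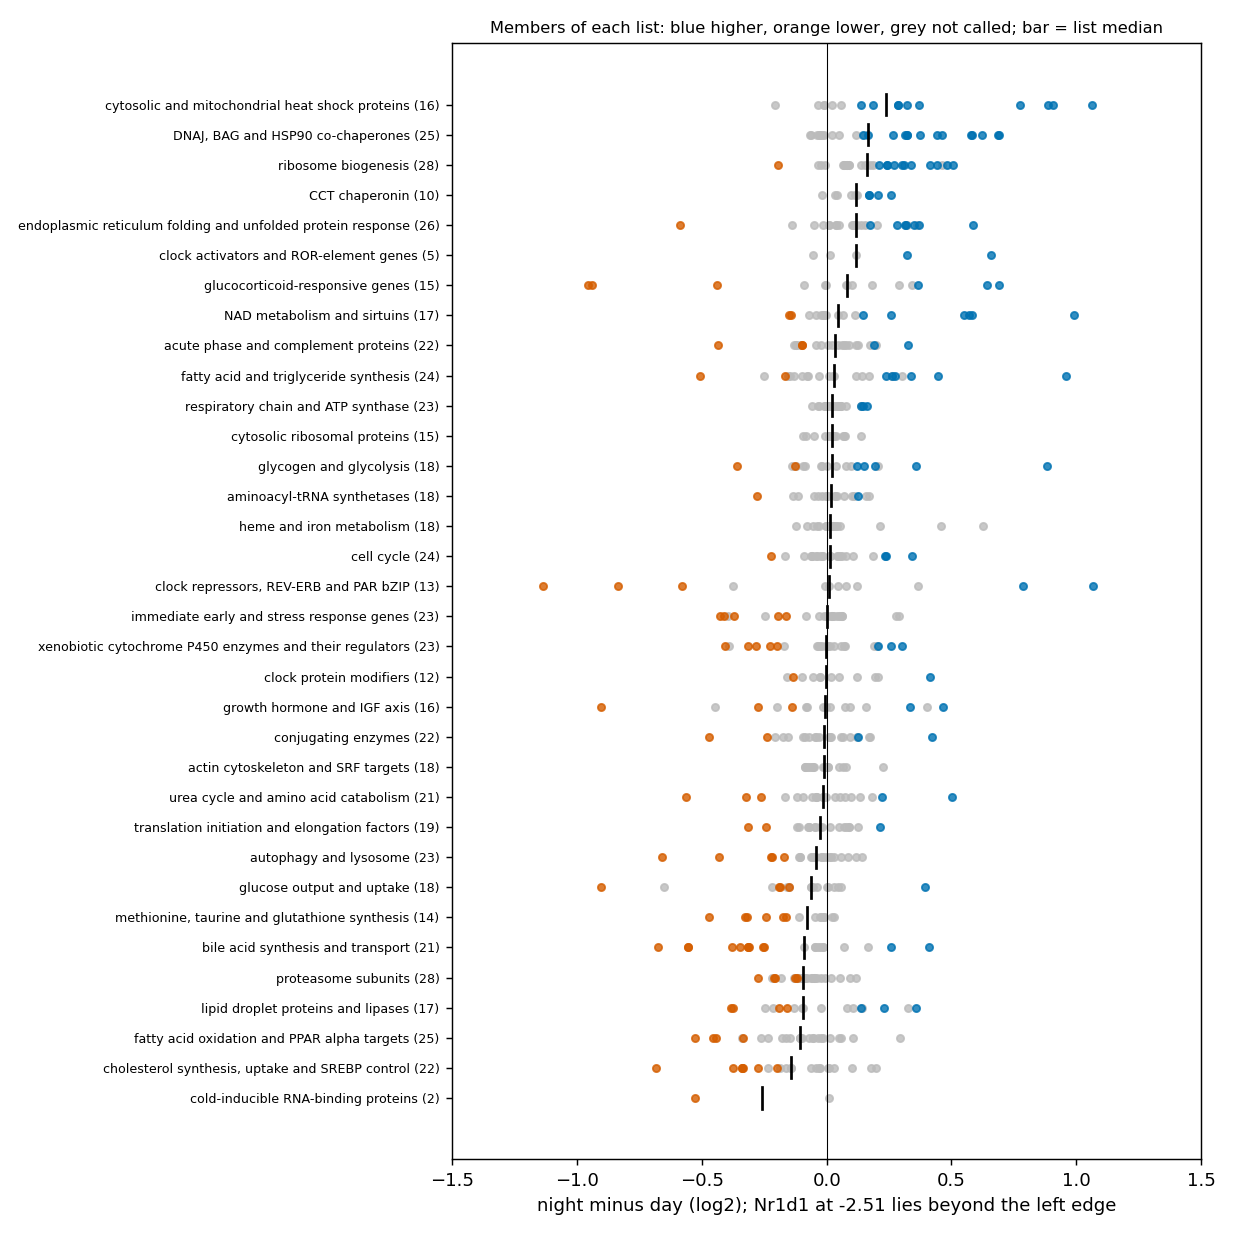
Night minus day difference (log2, points) of every measured member of 34 gene lists, with the number measured in brackets, blue for genes called higher at night, orange for genes called lower and grey for the others, and the list median as a bar. Lists are ordered by median, from 0.24 for the heat shock proteins to -0.26 for the 2 cold-inducible genes, and Nr1d1 lies beyond the axis.

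In carbohydrate metabolism the counts were small and depended on single arrays. Of 18 glycogen and glycolysis genes, 5 were higher and 2 lower. Next to Ppp1r3b, whose rise was described above, Phka2, the liver regulatory subunit of phosphorylase kinase, was lower (-0.36 ± 0.061, adjusted p = 0.00061). Pgk1, a glycolytic kinase, was higher (0.15 ± 0.042, adjusted p = 0.029), but not without CT03 replicate 1 or 2, CT06 replicate 1 or 2, CT09 replicate 1, CT15 replicate 2 or 3, CT18 replicate 2 or 3, or CT21 replicate 2 or 3, nor without the 4 night arrays (0.053). The higher count was unsteady, at 1 without CT03 replicate 1 or 2, CT06 replicate 2 or CT18 replicate 3, at 2 or 3 without most other single arrays and at 2 without the 4 night arrays. The lower count was 1 without most single arrays. Of 18 genes for glucose output and uptake, 1 was higher and 4 were lower, and the lower count was 1 without CT03 replicate 1 or CT18 replicate 2 and 2 without many other single arrays. Insr, the insulin receptor, was lower (-0.19 ± 0.054, adjusted p = 0.029), but not without CT03 replicate 1 or 3, CT06 replicate 3, CT09 replicate 3, CT15 replicate 3, CT18 replicate 2, or CT21 replicate 2 or 3, nor without the 4 night arrays (0.12). Slc37a4, the glucose 6-phosphate transporter, was the higher gene (0.40 ± 0.073, adjusted p = 0.0013; pairs 0.82, 0.58 and -0.21). Pck1, the gluconeogenic PEPCK, ran from -1.5 to 1.24, median -0.57, in the night arrays and from -0.16 to 1.28, median 0.27, in the day arrays and missed the threshold (-0.65 ± 0.21, adjusted p = 0.056). It passed without CT00 replicate 1 (0.045), CT09 replicate 3 (0.029), CT15 replicate 1 (0.014) or CT21 replicate 2 (0.036).

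Of 21 genes for the urea cycle and amino acid breakdown, 2 were higher and 3 lower. All 21 lay in the upper brightness class, where 210 of 2349 genes were higher and 306 lower, so the counts were near the share of that class. Asl, the argininosuccinate lyase, lay at 0.14 to 0.46 (median 0.31) at night and at -0.37 to -0.053 (median -0.22) by day, without overlap (0.50 ± 0.040, adjusted p = 1.3e-07). Its pairs, 0.59, 0.56 and 0.35, all passed. Hal, which breaks down histidine, and Agxt, a peroxisomal aminotransferase, were lower (-0.32 ± 0.046, adjusted p = 0.00012; -0.56 ± 0.10, adjusted p = 0.00083). Genes for methionine, taurine and glutathione synthesis were lower in 6 of 14 cases and higher in none (0), with 7 at an unadjusted p under 0.05, and 4 were lower without the 4 night arrays. The lower count was 2 without the time CT18, 3 without CT21 and 4 to 6 without any other time of the windows. Cbs, the cystathionine synthase, ran from -0.46 to 0.12, median -0.35, in the night arrays and from -0.11 to 0.45, median 0.27, in the day arrays (-0.47 ± 0.059, adjusted p = 2.5e-05). Cdo1, which commits cysteine to taurine, was lower, at -0.33 ± 0.043 (adjusted p = 4.3e-05) and Csad, the next enzyme on that path, by -0.32 ± 0.071 (0.0063), the last not without the 4 night arrays (0.15).

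Hormone targets split by gene. Of 15 glucocorticoid-responsive genes, 3 were higher and 3 lower. Tsc22d3, the glucocorticoid-induced leucine zipper, ran from -0.057 to 0.50, median 0.17, in the night arrays and from -0.72 to 0.017, median -0.45, in the day arrays (0.64 ± 0.066, adjusted p = 2.2e-06), and Fkbp5 rose with it, while Mt1 and Mt2 fell. Ddit4, an inhibitor of mTORC1 picked afterwards, was higher (0.36 ± 0.061, adjusted p = 0.00051), and Klf9, a further target picked afterwards, lower (-0.44 ± 0.10, adjusted p = 0.0080), though not without the 4 night arrays (0.22). Without CT15 replicate 2, 5 of the 15 were higher. Of 16 genes of the growth hormone and IGF axis, 2 were higher and 3 lower, and the higher count was 1 without CT03 replicate 2 or 3, CT18 replicate 3, CT21 replicate 1 or 3 or the 4 night arrays. Stat5b, the signal transducer of growth hormone, was lower (-0.28 ± 0.048, adjusted p = 0.00074), and of its pairs, -0.63, -0.53 and 0.32, the third was opposed to the others. Igfals, which stabilises IGF complexes in blood, was higher (0.33 ± 0.085, adjusted p = 0.016).

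NAD genes were higher in 6 of 17 cases and lower in 2. Nampt, the rate-limiting enzyme of NAD salvage, lay at -0.19 to 0.83 (median 0.25) at night and -0.78 to 0.39 (median -0.41) by day (0.58 ± 0.064, adjusted p = 5.3e-06). Its pairs fell from 1.36 through 0.70 to -0.31 (adjusted p = 2.8e-06), and Nmrk1, a nicotinamide riboside kinase, had the like 1.09, 0.77 and -0.21 (0.55 ± 0.086, adjusted p = 0.00026). Acmsd, in contrast, had its largest pair last. Nnmt, which methylates nicotinamide and was picked afterwards, was higher (0.57 ± 0.13, adjusted p = 0.0067). The lower count was 0 without CT03 replicate 1, CT06 replicate 2, CT09 replicate 2 or CT21 replicate 3, and 1 without many other single arrays. No gene (0) of 18 for heme and iron metabolism passed, with 3 at an unadjusted p under 0.05. Alas1, the rate-limiting enzyme of heme synthesis, had a wide spread, -1.60 to 0.99 (median 0.24) at night and -1.47 to 0.25 (median -0.30) by day, and 0.63 ± 0.20, adjusted p = 0.057. It passed without CT21 replicate 2 (0.0023), which held the lowest night value, and without CT06 replicate 2 (0.048), CT06 replicate 3 (0.043) or CT15 replicate 1 (0.032). Tfrc, the transferrin receptor, had 0.46 ± 0.16, adjusted p = 0.072 and passed without CT03 replicate 3, CT15 replicate 1 or CT21 replicate 1 (lowest 0.024). Ppox, an enzyme of heme synthesis, had -0.12 ± 0.045, adjusted p = 0.10 and passed without CT21 replicate 1 (0.039). In the list, 2 were higher without CT15 replicate 1, 1 without CT03 replicate 3, CT06 replicate 2 or 3 or CT21 replicate 1 or 2, and 1 was lower without CT21 replicate 1.

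Genes for autophagy were lower where they changed, in 5 of 23 cases (4 without the 4 night arrays), and higher in none (0), with 7 at an unadjusted p under 0.05. Gabarapl1, which couples to the growing autophagosome, ran from -0.62 to -0.10, median -0.40, in the night arrays and from 0.085 to 0.47, median 0.26, in the day arrays, without overlap (-0.66 ± 0.059, adjusted p = 4.5e-07). Its pairs, -0.43, -0.99 and -0.56, all passed. Ulk1, the kinase that starts autophagy, was lower (-0.43 ± 0.054, adjusted p = 2.3e-05), the second and the third of its pairs passing (-0.0041, -0.45 and -0.84), and Sqstm1, the cargo receptor p62, was lower, at -0.22 ± 0.032 (adjusted p = 0.00011). Of 28 proteasome subunit genes, 5 were lower and none (0) higher, with 15 at an unadjusted p under 0.05 and a median of -0.094. In the upper brightness class, which held 24 of the 28, 306 of 2349 genes were lower and 210 higher. Psma5 (-0.27 ± 0.042, adjusted p = 0.00023), Psmd11 (-0.21) and Psmc2 (-0.13) were among the 5 lower subunit genes. The lower count was 3 without the 4 night arrays and 11 with the small nucleolar RNA mean as a covariate. Leaving out single arrays gave 3 without CT03 replicate 1 or 2, CT06 replicate 1, CT18 replicate 2 or CT21 replicate 3, and 8 without CT18 replicate 3 or CT21 replicate 1. Leaving out a whole time gave 1 without CT03 or CT06, 2 without CT18, 4 without CT21, 7 without CT09 and 10 without CT15. Without CT15 replicate 1 a single gene was higher in this list and in that for autophagy.

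Among 23 cytochrome P450 genes of xenobiotic metabolism and their regulators, 3 were higher and 5 lower (3 and 3 without the 4 night arrays, and 3 lower without CT09 replicate 1, CT18 replicate 2 or CT21 replicate 3). Cyp3a25 separated the windows (median -0.25 at night and 0.038 by day; -0.32 ± 0.046, adjusted p = 0.00012). Cyp2c70 was higher (0.26 ± 0.047, adjusted p = 0.0011) and Ahr, the aryl hydrocarbon receptor, lower (-0.41 ± 0.079, adjusted p = 0.0021), the latter not without the 4 night arrays (adjusted p = 0.071). The P450 families hold close paralogs whose probes may share signal. Of 22 conjugating enzymes, Gstt2, a glutathione transferase, was lower (-0.47 ± 0.081, adjusted p = 0.00069) and Sult1d1, a sulfotransferase, higher (0.42 ± 0.091, adjusted p = 0.0046), within totals of 2 higher and 2 lower, each of which was 1 without many single arrays. These totals were near the shares of the upper brightness class, which held 14 of the 22. Gsta3, another glutathione transferase, was higher (0.13 ± 0.035, adjusted p = 0.029), but not without CT03 replicate 1, CT06 replicate 1, CT09 replicate 1 or 2, CT15 replicate 2, CT18 replicate 3, or CT21 replicate 1, nor without the 4 night arrays (0.13). Of 22 acute phase and complement genes, 2 were higher and 3 lower, among them Apcs, the serum amyloid P component, which was lower (-0.43 ± 0.075, adjusted p = 0.00077), and Saa4, a constitutive serum amyloid A, which was higher (0.32 ± 0.078, adjusted p = 0.011). Steap4, a metalloreductase, was also higher (0.19 ± 0.046, adjusted p = 0.0099; pairs 0.41, 0.36 and -0.20). In that list 4 were higher without CT06 replicate 3, CT15 replicate 1 or CT18 replicate 1, and 1 was lower without the 4 night arrays. The upper brightness class held 16 of the 22, and the 2 higher and 3 lower genes were near its shares.

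Immediate early and stress response genes were lower in 5 of 23 cases and higher in none (0), with 6 at an unadjusted p under 0.05, but 3 without most single arrays and none (0) without the 4 night arrays. Egr1, an early growth response factor, had a first pair of -1.02 and little after it (-0.25 and -0.0064; pooled -0.43 ± 0.10, adjusted p = 0.0093), and Zfp36, which speeds mRNA decay, had -0.41 ± 0.11, adjusted p = 0.020. Klf6, a zinc finger factor, was lower (-0.16 ± 0.043, adjusted p = 0.020), but not without CT03 replicate 1 (0.050). Of 24 cell cycle genes, 3 were higher and 1 lower. Rrm2, a subunit of ribonucleotide reductase, was higher (0.23 ± 0.049, adjusted p = 0.0036) with pairs of 0.74, 0.30 and -0.34, Ccne2, a cyclin, rose by 0.24 ± 0.048 (adjusted p = 0.0029) and Cdk2 fell by 0.22 (0.0071). Wee1, the clock-driven kinase that holds back mitosis and was picked afterwards, had strongly opposed pairs, 1.69, 0.60 and -1.26. Its pooled difference (0.34 ± 0.10, adjusted p = 0.034) lost its call in 11 of the 24 fits that left out 1 array each, those without CT03 replicate 1, CT06 replicate 1 or 2, CT09 replicate 1 or 2, CT15 replicate 2 or 3, CT18 replicate 1 or 3, or CT21 replicate 1 or 2. Of 23 respiratory chain genes, 3 were higher by little, Cox5a (0.16 ± 0.030, adjusted p = 0.0015), Cyc1 (0.15) and Ndufv2 (0.14), and none (0) lower, with 5 at an unadjusted p under 0.05. None (0) of 18 actin and SRF target genes passed, with 1 at an unadjusted p under 0.05, but 2 were higher without CT09 replicate 3 and 1 without CT15 replicate 3. Besides Tubb2a, described below, those with the smallest p were Lmna, a nuclear lamin (-0.081), and Vcl, vinculin (-0.088).

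Pooling 3 times hides genes that cross the windows. Over the 8 times 2167 genes (10.9%) changed by a moderated F test, and 983 of them were not called night minus day. Among these 983, 299 had their highest mean at CT12 and 103 at CT00, and in 640 CT12 or CT00 held the highest or the lowest mean. Conversely, 1184 of the 1816 pooled calls (65.2%) also passed over the 8 times. In 713 genes the 3 pairs differed, 422 of these were not called in the pooled difference, and in 665 (93.3%) the first and the third pair had opposite signs. When CT15 minus CT03 and CT21 minus CT09 both passed, they did so in opposite directions in 163 genes and in the same direction in 34.

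Several of the widest genes of this kind serve metabolism. Elovl3, an elongase of very long-chain fatty acids, had its highest mean at CT00 (1.16) and its lowest at CT12 (-1.76). Its pairs, -1.75, -0.50 and 2.02, cancelled to -0.077 ± 0.10, adjusted p = 0.77, and the arrays ran from -0.79 to 1.14, median -0.31, in the night arrays and from -1.43 to 1.18, median 0.10, in the day arrays. Clpx, the unfoldase of the mitochondrial ClpXP protease, shared the smallest p for unequal pairs with Coq8a and had -1.12, -0.32 and 1.53 (adjusted p = 1.2e-11; pooled 0.027). Coq8a, a kinase-like protein of coenzyme Q synthesis, had -0.99, -0.27 and 0.92, and its small pooled call (-0.11 ± 0.032, adjusted p = 0.030) was lost without CT03 replicate 1 or 3, CT06 replicate 1 or 2, CT09 replicate 2, CT15 replicate 2, CT18 replicate 3 or CT21 replicate 3. Aqp8, a water channel, had -1.94, -0.51 and 1.35 and stayed lower after pooling (-0.37 ± 0.081, adjusted p = 0.0056).

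Others crossed in the opposite sense, with a maximum at CT12. Mfsd2a, a transporter of lysophosphatidylcholine, had pairs of 1.74, -0.76 and -1.38 and a CT12 mean of 1.78, against a pooled -0.13 ± 0.21, adjusted p = 0.83. Lpin1, a phosphatidate phosphatase and coactivator, had a CT12 mean of 1.70 and pairs of 0.99, 0.30 and -0.78 (pooled 0.17). Coq10b, a coenzyme Q binding protein, had 1.26, 0.063 and -0.98 (pooled 0.11). Ppp1r3c, another glycogen-targeting subunit, ran with Elovl3 instead, with a CT12 mean of -1.14, a CT00 mean of 0.94 and pairs of -0.67, -0.064 and 1.35. Tubb2a, a beta tubulin, had the same sense (-0.80, 0.13 and 1.34; pooled 0.22 ± 0.088, adjusted p = 0.14) and passed without CT09 replicate 3 (0.0078) or CT15 replicate 3 (0.048).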

How the data were processed

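RNA of 24 livers was hybridised to Affymetrix Mouse Gene 1.0 ST arrays, 1 array each. The values are the log2 values deposited by the authors, taken as base 2, with each probe set centred on its median over the 24 arrays. How they were normalized, and with which software, is not stated in the sources at hand. The files hold no signal level, so brightness was read only as a class from the rounding steps of the values (3649 of 28815 probe sets in the upper class, in place of a planned filter on dim probes). Of the probe sets, 21780 had 1 gene symbol, 1605 several and 5430 none; those of a symbol were averaged (998 genes), giving 19935 genes. A limma (3.58.1, R 4.3.3) model with a mean for each of 8 times was fitted to all 24 arrays, with empirical Bayes variances and Benjamini-Hochberg adjustment over all genes; a call is an adjusted p under 0.05. Contrasts were night minus day, the 3 differences between times 12 h apart, a moderated F test that these differ, and a moderated F test over the 8 times.

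Genes named were the 15 largest differences in each direction, all clock genes of 2 lists, the 3 members of each other list with the smallest p, the 6 genes with the smallest p that pairs differ and the 8 with the widest time course among genes that only the test over 8 times called; others are said to be picked after their values were seen. The members and lists were chosen with earlier results of these data known. Alternatives changed probe set averaging, brightness, centring, weights, the spread, a replicate block, a covariate and the arrays or times used. Samples were treated as unpaired. Correlations of deviations between same-numbered arrays 12 h apart ran from -0.20 to 0.35. Between same-numbered arrays of any 2 times their medians were 0.16, 0.0098 and 0.17 for replicates 1, 2 and 3. These values cannot tell whether the replicate numbers mark a pairing or a batch. No 2 arrays held identical values. The sample titles give replicate numbers only, the extraction text speaks of biological replicates, and their number, 3, limits the precision. Promoter windows are RefSeq's, searched over 250 bases upstream. Scripts were tested on simulated data.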

Additional observations from a re-analysis of the deposited data

Results flagged for a closer look

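The rule used here for the gap between an array and the next flags about 1 in 20 groups when all values come from 1 distribution. A window pools 3 times whose means can differ, so that rate is no measure of chance here. Of 318 groups of 9 arrays (159 named genes, night and day window), 15 held an array whose gap to the next was wide for the group's range. In the night window these were Agxt in CT15 replicate 1 (0.43), Alas1 in CT21 replicate 2 (-1.60), Clock in CT15 replicate 1 (-0.39), Cyp7a1 in CT21 replicate 3 (-0.46), Insr in CT18 replicate 2 (-0.31), Nfil3 in CT21 replicate 1 (0.52), Nnmt in CT15 replicate 1 (1.34), Ppp1r3b in CT15 replicate 1 (-0.073), Psma5 in CT15 replicate 2 (0.0092), Psmd11 in CT21 replicate 1 (0.23), Rps18 in CT15 replicate 3 (0.22) and Saa4 in CT15 replicate 2 (0.70). In the day window these were Cry2 in CT03 replicate 2 (-0.40), Cyp7a1 in CT09 replicate 3 (0.88) and Nr1d1 in CT03 replicate 2 (0.38).

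For 68 named genes the 3 pairs differed by the moderated F test in limma, so that the difference depended on the hour. The smallest adjusted p-values were those of Clpx (1.2e-11), Coq8a (1.2e-11), Arntl (2.5e-09), Aqp8 (7.7e-09), Elovl3 (7.7e-09), Usp2 (7.7e-09), Coq10b (3.1e-08), Tef (3.2e-08), Ciart (2.9e-07), Wee1 (5.5e-07), Clock (6.8e-07) and Hsd3b7 (7.9e-07). They were followed by Insig2 (1.1e-06), Nampt (2.8e-06), Per3 (3.2e-06), Per1 (3.4e-06), Dbp (3.6e-06), Cpt1a (7.4e-06), Tubb2a (7.4e-06), Hmgcs1 (2.0e-05), Rrm2 (2.3e-05), Stat5b (3.0e-05), Hspa8 (3.5e-05) and Agpat2 (7.2e-05). They were followed by Per2 (9.6e-05), Hal (9.7e-05) and Ppara (9.9e-05). After these came Fkbp5 (0.00019), Abcg8 (0.00020), Hsph1 (0.00034), Nr1d2 (0.00038), Tspan4 (0.00046), Bhlhe41 (0.00061), Nr0b2 (0.00077), Mt1 (0.00078) and Hlf (0.00098). Next came Pnpla2 (0.0011), Nmrk1 (0.0012), Mfsd2a (0.0013), Ulk1 (0.0014), Elovl6 (0.0017), Cry1 (0.0017), Steap4 (0.0023), Elovl5 (0.0024), Abcb11 (0.0026), Slc37a4 (0.0027), Ppp1r3c (0.0031) and Nr1d1 (0.0033). They were followed by Fdft1 (0.0034), Nfil3 (0.0041), Dnajb1 (0.0048), Rgs16 (0.0059) and Lpin1 (0.0084). Nearest to the threshold lay Rbm3 (0.013), Mt2 (0.013), Bhlhe40 (0.016), Acly (0.016), Cyp7a1 (0.020), Cbs (0.021), Psmd11 (0.023), Alas1 (0.023), Gstt2 (0.025), Thrsp (0.029), Pck1 (0.035) and Abcb4 (0.040). They were followed by Cyp2c70 (0.041), Cdk2 (0.042) and Egr1 (0.046).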

How the results depend on the processing

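The 1816 calls (781 higher, 1035 lower) stayed within 1.5 times under single probe set genes, re-centring, robust variances, the 18 window arrays, the covariate and the removal of any 1 array (1478 to 1950 called, 642 to 944 higher, 827 to 1054 lower). They did not in the upper brightness class (647, 268 and 379; pairs 321, 423 and 328; pairs that differ 330; over 8 times 786), where 2349 genes were tested, in the fit of 2 groups (955, 373 and 582), where differences between the times of a window count as spread, with the 6 time means as units (4, 3 and 1), without the time CT06 (939, 496 and 443), without CT18 (1038, 443 and 595), or at 1.5-fold (66, 31 and 35). Without the 4 night arrays 666 genes were lower and CT15 minus CT03 called 390. Array weights gave 1211 genes for CT21 minus CT09, 1287 whose pairs differ and 4900 over 8 times; without the 4 arrays farthest from their time mean CT15 minus CT03 called 1410, CT18 minus CT06 1404, pairs that differ 1159 and the 8 times 4729. The cause was not tested. Leaving out single arrays gave 535 to 1012, 475 to 1032 and 420 to 785 for the 3 pairs, 551 to 836 for pairs that differ and 1824 to 2562 over 8 times. The share of higher genes ran from 35.3% to 52.8% with a time left out.

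Signs turned without CT03 for Coq8a (0.12), Elovl3 (0.42), Tef (-0.35), Usp2 (-0.033) and Wee1 (-0.076), without CT09 for Clpx (-0.44) and Per3 (0.34), without CT15 for Aqp8 (0.084) and Coq8a (0.090) and without CT21 for Clpx (-0.26). Of the 159 named genes 129 were called. Of these 129, 39 lost their call in the fit of 2 groups, 127 with time means and 21 without the 4 night arrays. With the replicate number as a block 2142 genes were called (923 higher, 1219 lower), 1800 of them also without it. Whether the numbers pair the samples is not known.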
